A study of Rattus norvegicus with 18 samples.

Results

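In cultured rat hepatocytes, 17 of 30897 listed transcripts were nearly absent under vehicle and present in every library exposed to acetaminophen. They were chosen by their TPM (a read level corrected for transcript length and for the library total): a mean under 0.5 TPM over the 3 Control libraries and 5 TPM or more in each of the 4 APAP libraries. The Control threshold alone was met by 14953 transcripts and the APAP threshold alone by 7511. Because Control and APAP values chose the members, the difference between those 2 groups is described here without a test. The files give identifiers and no gene names, and 0 of the identifiers matched the rat RefSeq gene table, so members are mostly called by their length in bases.

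The cells were primary hepatocytes, the main liver cells, held for 6 h in medium with 0.1% DMSO, which every group received. APAP is acetaminophen, a painkiller that harms the liver at high dose, used at 3 mM with 4 libraries. Control is the DMSO vehicle alone (3 libraries), CCl4 is the solvent carbon tetrachloride at a dose not given in the sources used here (3 libraries), TCDD is a dioxin at 1 nM (4 libraries, of which replicates 2 to 4 are used), and TCE is the solvent trichloroethylene at 1 mM (4 libraries). No source used here gives strain, sex or age. Nor is it said whether the replicates are separate animals or cultures, and the p-values therefore reflect only how far these libraries differ, possibly for technical reasons. Without gene names, hepatocyte markers and markers of other liver cells could not be looked up.

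As background, hepatocytes clear most acetaminophen by joining it to glucuronic acid or sulfate, while cytochrome P450 enzymes turn a part into the reactive quinone imine NAPQI. NAPQI is bound by glutathione, and once glutathione runs low it attaches to proteins and sets off oxidative and other stress responses, in which genes silent at rest can be transcribed. A gene can give several transcripts that share much of their sequence, and genes of a family can be much alike, so that 1 read may fit several identifiers.

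Total estimated counts were 9280367 to 11479466 in the 17 libraries used, with 19151 to 19801 transcripts above 0. TCDD replicate 1 stood apart, with 6563387 counts and 27416 transcripts above 0, and was left out by the rule for the members. In that library 15 of the 17 members were above every Control library, as were 76.3% of the 14953 transcripts that met the Control threshold, so the share of the members is read as no result about them. It held 2 members at 5 TPM or more, a level reached by 2.11% of those 14953.

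**Figure D1:**
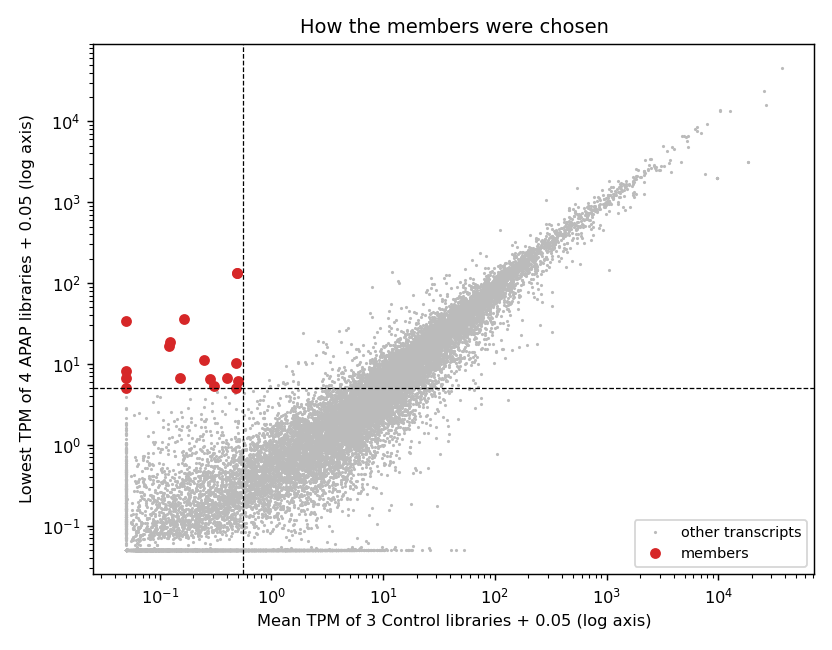
Mean TPM of the 3 Control libraries (x, log axis, 0.05 added) against the lowest TPM of the 4 APAP libraries (y, log axis, 0.05 added) for all 30897 transcripts, with dashed lines at both thresholds. The 17 members (red; the identical pair overlaps) are the points above 5 TPM and left of 0.5 TPM.

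Near the thresholds, the member that entered by the smallest margin was one of 879 bases, with 5.00 TPM in its lowest APAP library and 0 in the Control. A 917-base transcript stayed out at 4.88 TPM, also with a Control mean of 0. On the Control side, the highest member mean was 0.450 TPM and the nearest transcript outside had 0.898 TPM. The same rule was applied to every other ordered pair of groups. With each of the other 4 groups in turn as the group that is off, the number of transcripts on in all 4 APAP libraries was 17 for Control, 16 for CCl4, 13 for TCDD and 12 for TCE. Off in Control and on in every library of another compound were 1 transcript for CCl4, 2 for TCDD and 0 for TCE. In the other direction, 11 transcripts were off in APAP and on in every Control library, 13 were off in APAP and on in every CCl4 library, 18 in every TCDD library and 18 in every TCE library. Beside Control and CCl4, more transcripts were thus on with APAP than off with it, and beside TCDD and TCE fewer were. These counts use 3 or 4 libraries on the second side, so they are not of equal strictness, and they share the Control or APAP libraries.

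The members were mostly short. Their lengths ran from 399 to 7188 bases with a median of 927 bases, against 1697 for all transcripts listed and 1826 for the 7511 at 5 TPM or more in each APAP library. Under 1000 bases were 9 of the 17, against 18.1% of those 7511, and over 2000 bases were 5, against 43.9%. TPM is divided by length, so a short member passed with few reads: the 399-base member had 14 to 23 counts in the APAP libraries. With counts scaled to the library total (CPM) in place of TPM and the same thresholds, 21 transcripts were found, of which 10 were among the 17, and their median length was 2181 bases.

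**Figure D2:**
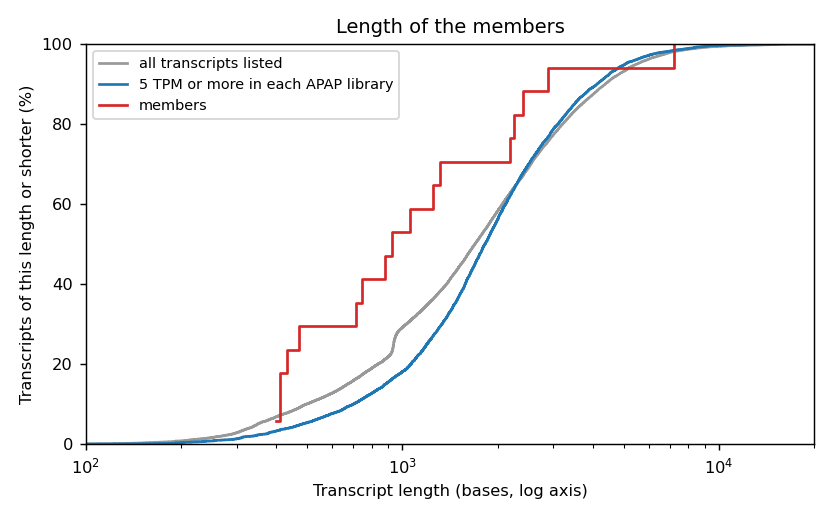
Share of transcripts (y, %) at or under a given length (x, bases, log axis) for all listed transcripts, those at 5 TPM or more in each APAP library, and the 17 members. The members' curve lies to the left at most lengths, with a median of 927 bases against 1697 and 1826.

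Levels under acetaminophen spanned a wide range. The mean over the 4 APAP libraries was above 100 TPM for 2 members, between 20 and 100 TPM for 6 and at most 20 TPM for 9, with a median of 11.3 TPM. The median over the 7511 transcripts was 21.6 TPM. Summed over the 17 members, the level was 3.57 ± 1.41 TPM in the Control (SD, n = 3) and 601 ± 105 TPM with APAP (SD, n = 4).

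**Figure D3:**
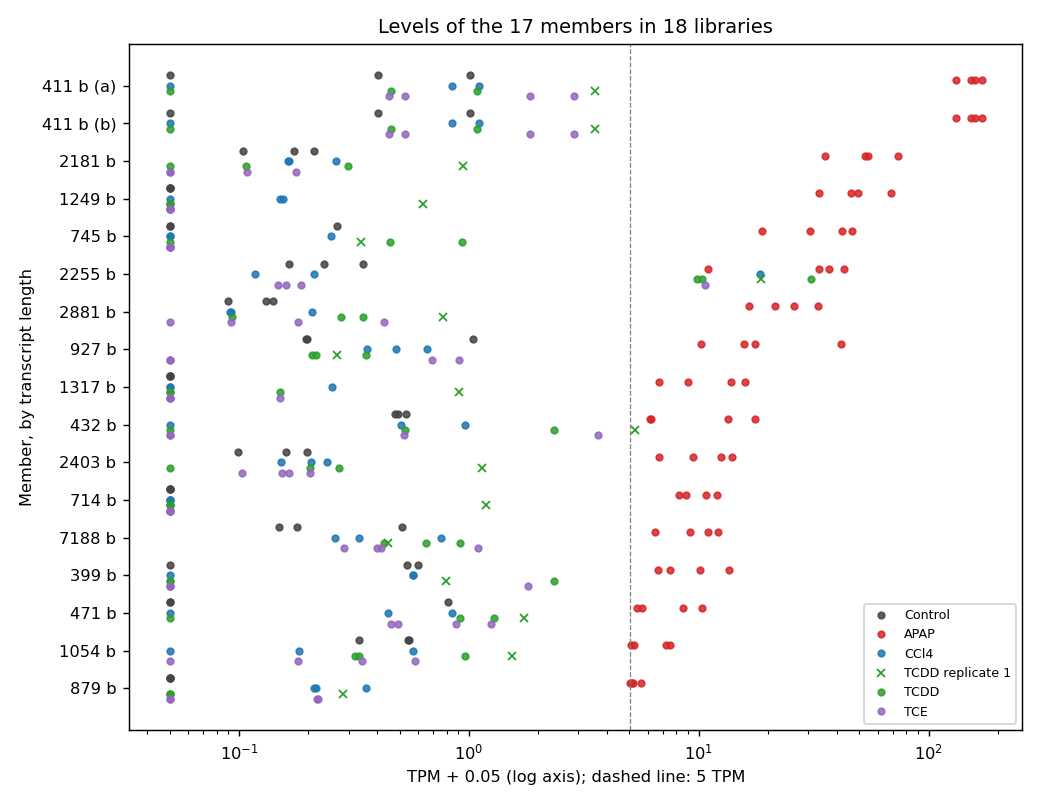
TPM (x, log axis, 0.05 added) of each member (rows, by length, highest APAP mean at the top) in each library, coloured by group, with TCDD replicate 1 as crosses and a dashed line at 5 TPM. For 16 rows the APAP points lie right of all other points among the 17 libraries used; in the 2255-base row CCl4, TCDD and TCE libraries lie among them.

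The highest values belonged to ENSRNOT00000040906.2 and ENSRNOT00000081042.1, both of 411 bases, whose values were identical in each library, so that the 17 members hold 16 distinct profiles. Each stood at 153, 170, 159 and 131 TPM in APAP replicates 1 to 4, and at 0.354, 0.961 and 0 TPM in the Control libraries. All 4 APAP libraries were far above the 3 Control libraries. Outside APAP, the highest value among the 10 CCl4, TCDD and TCE libraries was 2.83 TPM, in TCE replicate 1. For a transcript of this length, 3 counts correspond to between 1.51 and 1.68 TPM in the TCE libraries, so most of these values lie under the level of 3 counts. These are values of 1 entry. Added together, the 2 entries held 3.43 and 4.26 counts in CCl4 replicates 2 and 3 and 3.83 counts in TCDD replicate 4. In TCE replicates 1 and 2 they held 11.3 and 6.96 counts, and in the other compound libraries used under 3 counts. Their summed Control mean was 0.876 TPM, above the 0.5 TPM threshold, so the pair met the rule only entry by entry.

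The 2181-base member came next, with 52.9, 73.2, 54.5 and 35.4 TPM in APAP replicates 1 to 4. Its Control values were 0.162, 0.123 and 0.0545 TPM, which are 6 counts in all. Its CPM were 507 times as high with APAP as in the Control, a ratio that rests on the 6 Control counts. The member also stood at 8, 5 and 3 counts over the CCl4, TCDD and TCE libraries, against 3842 over the APAP libraries.

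The 1249-base member had 45.8, 68.8, 49.1 and 33.4 TPM in the APAP libraries and 0 counts in all 3 Control, 3 TCDD and 4 TCE libraries. CCl4 replicates 1 and 2 held 1 count each. Against a floor of 3 counts in each Control library, its mean CPM was at least 166-fold higher with APAP. Of the 17 members, 4 were at 0 counts in all Control libraries. The other 3 were of 1317, 714 and 879 bases, at least 40.6-, 16.7- and 11.5-fold higher against the same floor.

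The 745-base member had 30.4, 46.1, 42.1 and 18.8 TPM in the APAP libraries, and 1 count in the 3 Control libraries together. The 2881-base member had 21.4, 33.1, 25.8 and 16.6 TPM with APAP and 0.0401, 0.0914 and 0.0807 TPM in the Control. The 927-base member had 15.8, 41.3, 17.5 and 10.2 TPM with APAP, where replicate 2 was well above the rest, and 0.145, 0.988 and 0.147 TPM in the Control. In none of these 3 members did an APAP library overlap a Control library, as the rule requires.

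The longest member, of 7188 bases, was read in every library. It had 751, 654, 579 and 441 counts in the APAP libraries (10.9, 12.1, 9.15 and 6.43 TPM) and 6.45, 7.33 and 29.8 counts in the Control libraries. Control replicate 3 was thus above the other Control libraries by several fold. The ratio of pooled CPM was 43.6. The remaining 8 members, of 399 to 2403 bases, had APAP means of 5.19 to 11.3 TPM and Control means of at most 0.450 TPM.

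All 17 members passed the filter on low counts, which the APAP libraries alone were enough to meet, and all 17 were called higher with APAP in the edgeR quasi-likelihood fit (Benjamini-Hochberg adjusted p under 0.05) over 16270 transcripts, of which 22.5% were called higher. The rule used this contrast, so nothing is read from that count. The median log2 fold change of all tested transcripts was -0.04, and -0.36 when libraries were scaled to their totals. The lowest member value was 4.21, and 3.91 with that scaling.

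Reads that fit several transcripts are divided among them by kallisto, which leaves estimated counts that are not whole numbers. Counts were whole numbers in each of the 18 libraries, to within 0.000001, for 11 of the 17 members (64.7%), against 39.2% of tested transcripts. For the other 6, a search was made, after their values were seen, for a transcript whose counts give a whole number in every library when added to theirs (within 0.05). It found 1 such transcript for the identical 411-base pair and for the members of 714, 1249 and 2255 bases, among 15903 or 15904 candidates. The largest distance from a whole number was 0.021, and the next-best candidates reached 0.163 to 0.288. For the 7188-base member there was none, the nearest candidate reaching 0.253.

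The 411-base pair shared its fractions with another transcript of 411 bases, ENSRNOT00000085945.1, which was not off in the Control. It stood at 77.7 ± 6.27 TPM in the Control (SD, n = 3) and 98.6 ± 3.58 TPM with APAP (SD, n = 4). Because its counts are divided with those of the pair, this difference is given without a test. The summed counts of the 3 transcripts were 181, 139 and 163 in the Control libraries and 906, 790, 878 and 807 in the APAP libraries. As CPM the sum was 14.7 ± 1.37 in the Control and 81.8 ± 4.64 with APAP, 5.57 times as high. The pair held 0% to 2.63% of the summed counts in the Control libraries and 72.9% to 77.2% in the APAP libraries. Added together, the 3 transcripts were thus present under vehicle, and the APAP and Control libraries did not overlap in the sum.

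The partner of the 1249-base member, of 1463 bases, was itself close to 0 in the Control. It had 1 count in the 3 Control libraries together and 60.8, 52.0, 62.0 and 15.6 counts in the APAP libraries. The sum was 1 count over the Control libraries and 364 to 619 counts per APAP library. The 714-base member and its 750-base partner summed to 0 counts in all 13 Control, CCl4, TCDD and TCE libraries used and to 51, 64, 59 and 49 counts in the APAP libraries. With the partner added, the Control thus held at most 1 count for either of these 2 members.

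The 2255-base member, ENSRNOT00000025826.5, was the exception with the other compounds. It had 42.7, 11.0, 36.9 and 33.3 TPM in the APAP libraries and 0.184, 0.298 and 0.115 TPM in the Control libraries. In CCl4 it stood at 18.4, 0.0676 and 0.162 TPM, in TCDD replicates 2 to 4 at 9.74, 30.7 and 10.3 TPM, and in TCE at 0.136, 0.0977, 0.111 and 10.6 TPM. CCl4 replicate 1, TCE replicate 4 and every TCDD library were thus high, and the other CCl4 and TCE libraries were at the Control level. No library used lay between 0.298 and 9.74 TPM.

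Its counts added to whole numbers with ENSRNOT00000025319.6, a transcript of 2243 bases that was high in the Control, at 44.9 ± 12.5 TPM (SD, n = 3), and was also singled out after its values were seen. The member held under 1% of the summed counts in the Control libraries, 16.8% in APAP replicate 2 and 65.4% to 72.6% in the other APAP libraries. It held 60.4% in CCl4 replicate 1, 93.7% in TCDD replicate 3 and 34.5% in TCE replicate 4. The sum varied far less than either transcript: 53.9, 57.0 and 65.4 CPM in CCl4, 58.3, 53.0 and 61.3 CPM in TCDD, and 47.6, 52.4, 47.9 and 50.1 CPM in TCE. Within each of these groups, libraries with a high and a low share of the member had sums of similar size. In the Control the sum was 74.4 ± 17.4 CPM (SD, n = 3) and with APAP 103 ± 10.6 CPM (SD, n = 4), 1.39 times as high, with 87.5 CPM in the highest Control and 88.2 CPM in the lowest APAP library. The 2243-base transcript alone had 26.3 ± 19.0 TPM with APAP (SD, n = 4). Whether the transcripts of these sets belong to 1 gene was not tested, since the files do not pair identifiers with genes.

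**Figure D4:**
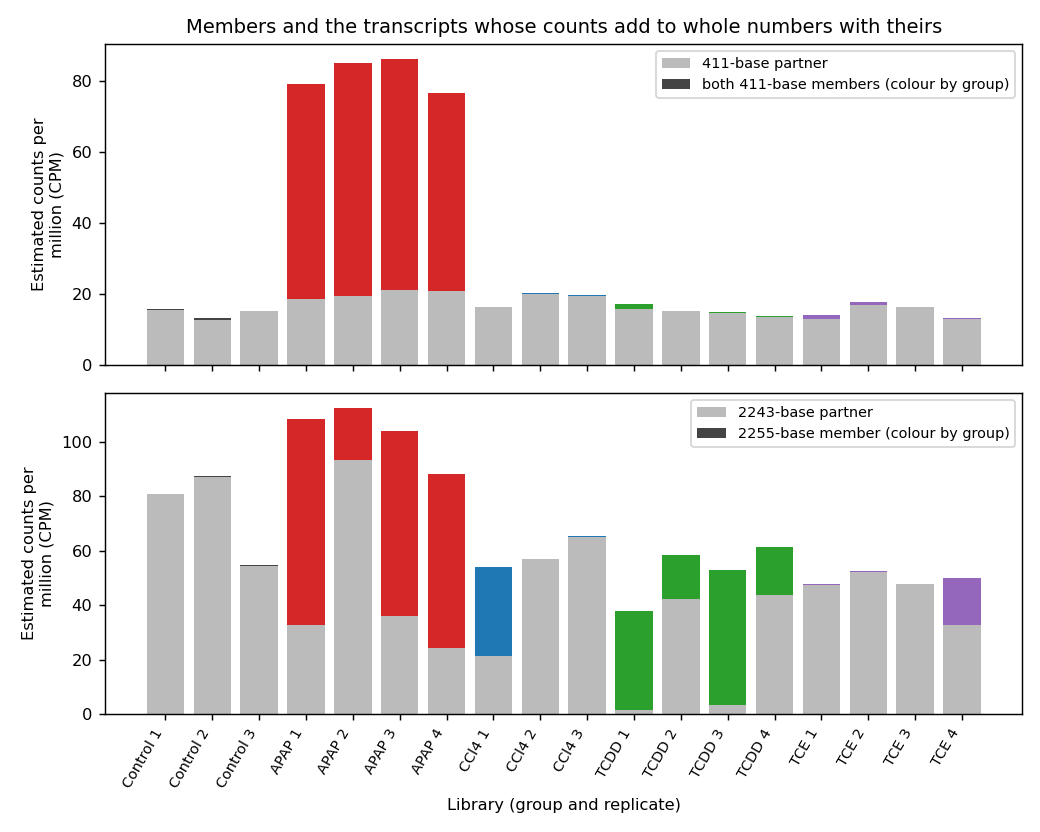
Estimated counts as CPM (y) in each of the 18 libraries (x) of the members of 411 bases (both together, top) and 2255 bases (bottom), stacked in group colours on the partner whose counts add to whole numbers with theirs (grey). In the top panel the sum is 13.1 to 15.8 CPM in the Control and 76.6 to 86.2 CPM with APAP; in the bottom panel the member's share changes from library to library while the sum stays between 47.6 and 65.4 CPM in the CCl4, TCE and TCDD libraries other than TCDD replicate 1.

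The members differed widely among the APAP libraries. Their coefficient of variation over the 4 libraries was 29.7% in the median (4.94% to 65.1%). The median was 9.88% over tested transcripts at 5 TPM or more in each APAP library. The members' values are those the rule used, and for members with 14 to 23 counts a library a part of their spread is counting error. APAP replicate 2 was the highest library for 13 of the 17 members and replicate 4 the lowest for 14. Over the 7505 tested transcripts at 5 TPM or more in each APAP library, replicate 2 was highest for 55.1% and replicate 4 lowest for 56.3%. Replicate 2 had the fewest counts of the 4, 9280367. The 2255-base member went the other way, with its lowest value in replicate 2. A part of depth, RNA quality or exposure in these differences was not tested.

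**Figure D5:**
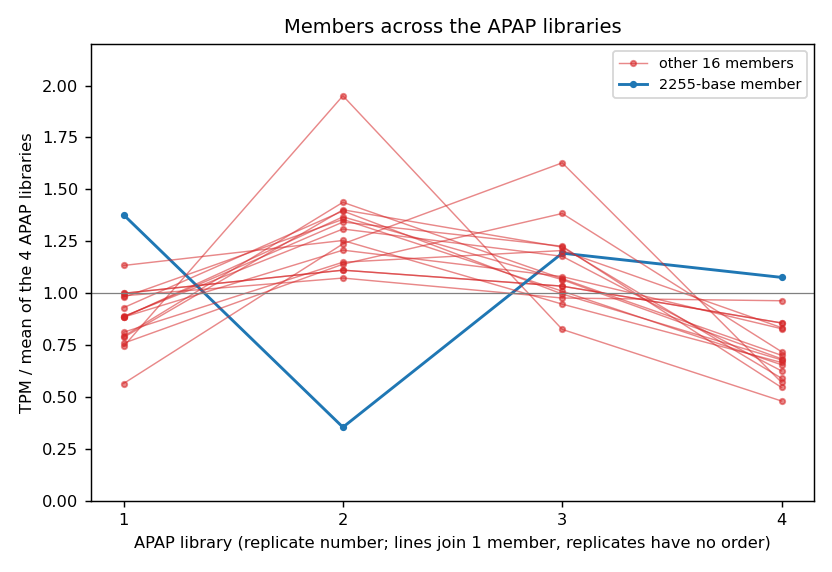
TPM of each member divided by its mean over the 4 APAP libraries (y), by library (x; lines join 1 member and imply no order). APAP replicate 2 is the highest for 13 of the 17 members and replicate 4 the lowest for 14; the 2255-base member (blue) is lowest in replicate 2.

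With CCl4, TCDD and TCE the members other than the 2255-base one had low values. Summed without it, the members reached 3.37 ± 1.32 TPM in the Control (SD, n = 3), 4.30 ± 0.980 TPM with CCl4 (SD, n = 3), 5.55 ± 2.67 TPM with TCDD (SD, n = 3) and 6.45 ± 2.80 TPM with TCE (SD, n = 4), against 570 ± 114 TPM with APAP (SD, n = 4). For 15 members no CCl4, TCDD or TCE library held more than 8 counts, and 62 of their 150 values were 0, while no APAP library held fewer than 14. Both 411-base entries are counted among these 15, each taken alone. Together they held 11.3 counts in TCE replicate 1. The lowest APAP library was above all 10 CCl4, TCDD and TCE libraries for 16 members. Over all tested transcripts this held for 5.19%, and the APAP threshold of the rule favours it among members.

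A mean of 1 TPM or more was reached by 1 member with CCl4, 1 with TCDD and 4 with TCE. With CCl4 and TCDD this was the 2255-base member, at 6.21 ± 10.6 TPM (SD, n = 3) and 16.9 ± 11.9 TPM (SD, n = 3); without CCl4 replicate 1 no member reached 1 TPM with CCl4, and the number with TCDD was 3 without TCDD replicate 2 or TCDD replicate 3 and 2 without TCDD replicate 4. With TCE it was again this member, at 2.74 ± 5.26 TPM (SD, n = 4), and the 411-base pair, at 1.38 ± 1.16 TPM for each entry (SD, n = 4). The last was ENSRNOT00000035459.5, of 432 bases, at 1.02 ± 1.73 TPM (SD, n = 4). Without TCE replicate 1 or TCE replicate 4 the number was 2. For the 432-base member the TCE counts were 0, 1, 0 and 7, so its mean rests on TCE replicate 4. With TCDD the same member had the second highest mean, 0.927 ± 1.21 TPM (SD, n = 3), from 1, 5 and 0 counts.

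The 7188-base member, with enough counts outside APAP to compare groups, had 43.8, 18.6 and 12.9 counts with CCl4, 36.0, 23.4 and 49.1 with TCDD and 14.6, 21.0, 21.7 and 57.6 with TCE. These ranges overlapped each other and the Control range. Counts of this member were not whole numbers and no partner was found. Whether the division of reads with other transcripts changed between libraries was therefore not tested. Its log2 difference was -0.11 between CCl4 and TCE (95% interval -1.32 to 1.10), -0.42 between CCl4 and TCDD (-1.67 to 0.84) and 0.31 between TCDD and TCE (-0.84 to 1.45).

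Contrasts among CCl4, TCDD and TCE compare libraries that the rule did not use, though all groups share the estimate of spread. For the 15 members with 8 counts or fewer in each of these libraries, which were tested because of their APAP counts, a call was hardly possible, so their number of calls is read as no result. Doses were not matched. In the joint test of the 3 compounds edgeR called 0 of the 17 members, against 1.20% of tested transcripts. There 1 member and 1786 of the 16270 transcripts were at an unadjusted p under 0.05. Between CCl4 and TCE edgeR called 0 members (background 1.89%), with 0 members and 2269 transcripts at an unadjusted p under 0.05. Between CCl4 and TCDD it called 0 members (background 0.99%), with 1 member and 1859 transcripts at an unadjusted p under 0.05. Between TCDD and TCE edgeR called 0 members, with 2 at an unadjusted p under 0.05, and 0% of all transcripts, with 412 at an unadjusted p under 0.05; over all transcripts DESeq2 called 4 and limma voom 0. DESeq2 and limma voom also called 0 members in these contrasts. At an unadjusted p under 0.05 were the 745-base member in the joint test and the 879-base member in CCl4 against TCDD. In TCDD against TCE these were the 745-base and 2255-base members. The 745-base member held at most 4 counts in any of these libraries and the 879-base member at most 2. Differences between these compounds could be looked at only for the 2255-base and 7188-base members. Both have counts that are divided with other transcripts. For the other members the counts were too few for a difference to be read.

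For the 2255-base member, the log2 difference of TCDD from TCE was 2.70, with a 95% interval of 0.07 to 5.32 that is not adjusted (edgeR quasi-likelihood adjusted p = 1.0). For CCl4 against TCE its difference was 1.44 (-1.32 to 4.20), and for CCl4 against TCDD it was -1.26 (-3.89 to 1.38). Each interval is very wide, being on the log2 scale, as libraries of 1 group were high or low.

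Against the Control, whose values the rule held low, edgeR called 0 of the 17 members with CCl4, TCDD and TCE, where 4.12%, 1.68% and 4.79% of tested transcripts were called. These backgrounds, of 670, 273 and 779 transcripts, changed strongly with single libraries. They were 108, 0 and 7 without Control replicate 1, and 1828, 1697 and 2028 without Control replicate 3. Libraries of the compounds moved them too. The number was 120 with CCl4 without CCl4 replicate 2, and 0 with TCDD without TCDD replicate 3. With TCE it was 165 without TCE replicate 3 and 1414 without TCE replicate 4. In each case 0 members were called. With all 17 libraries, 2, 1 and 0 members were at an unadjusted p under 0.05, beside 3384, 3205 and 3505 of the 16270 tested transcripts. DESeq2 called 1 member, the 2255-base one, higher with CCl4 (adjusted p = 0.0337, where it called 4.32% of transcripts higher) and with TCDD (adjusted p = 0.00715, where it called 3.04% higher), and limma voom called 0. The counts of the 2255-base member are divided with those of the 2243-base transcript. Their mean summed CPM was 0.790, 0.774 and 0.665 times that of the Control with CCl4, TCDD and TCE. In that sum the Control libraries, at 54.6 to 87.5 CPM, overlapped those of CCl4 and TCDD and not those of TCE. Nothing is read from the numbers of calls, since the Control values chose the members. The median log2 fold change of the 17 members was 0.44 with CCl4, 0.18 with TCDD and 0.79 with TCE. Over all tested transcripts it was -0.01, 0.00 and 0.01, which is no like background, since those were not chosen by low Control values. That choice favours positive medians among the members, and most members held few counts in these libraries. The medians of the members are therefore read as no result about the 3 compounds.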

How the data were processed

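RNA was sequenced from 18 libraries. The submitters' processing notes name kallisto 0.43. No source used here gives the build or the annotation. The deposited tables give, per transcript, length, effective length, estimated counts (expected counts, not normalized) and TPM, as the authors made them. TPM chose and describes the members. Estimated counts were rounded and fitted with edgeR 4.0.16 (filterByExpr, TMM factors, robust quasi-likelihood, group as factor) in R 4.3.3 over 17 libraries without TCDD replicate 1; Benjamini-Hochberg adjustment ran over all 16270 transcripts tested, with calls at an adjusted p under 0.05. The test was checked on simulated counts. Changes were placed only in transcripts with more counts than most members held outside APAP, with the same spread for all transcripts. The check therefore does not cover members with so few counts. Replicates differed by more than sampling noise (chi-square over degrees of freedom of 4.48 or more in each pair). The highest values were 31.0 for TCDD replicates 2 and 4 and 29.3 for APAP replicates 2 and 4. TCDD replicates 3 and 4 had 28.5, and TCDD replicates 2 and 3 had 5.70. The floor of 3 counts covers counting error only.

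Alternatives used DESeq2 1.42.0, limma 3.58.1, other scalings, filters and thresholds, replicate blocks and left-out replicates. The members, lists and tests were chosen with earlier results of these data known. Identifiers were printed by a fixed rule (the 2 highest APAP means, and up to 2 members per other comparison); 2 partner transcripts were added after their values were seen.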

Additional observations from a re-analysis of the deposited data

Results flagged for a closer look

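Within the groups of 4 libraries, gaps between 1 library and the rest were checked for 16 distinct member profiles in APAP and TCE, 32 sets in all, of which 5 stood out by Dixon's 95% limit. That limit supposes continuous values and then flags about 1 set in 20; in a set at 0 but for 1 library, as for the 399-base and 1317-base members, that library stands out whatever its value. All 5 were in TCE and 4 of them were TCE replicate 4. Over tested transcripts, those with the fewest counts aside, that library also stood apart. Its chi-square over degrees of freedom was 14.5 to 18.7 against the other TCE libraries, which had 4.48 to 5.24 among themselves. The place of TCE replicate 4 is therefore read as no result about the members. In TCE replicate 4 the 2255-base member stood at 10.6 TPM, against 0.136 TPM in the nearest TCE library, and the 7188-base member at 1.05 against 0.366 TPM. The 432-base member was at 3.59 against 0.475 TPM, and the 399-base member at 1.77 TPM (3 counts) against 0. The 1317-base member had 0.100 TPM in TCE replicate 1, which is 1 count, against 0 in the others.

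TCDD replicate 1, left out of the comparisons of the report, held 15 of the 17 members above every Control library, as it did 76.3% of all transcripts under the Control threshold.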

How the results depend on the processing

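The 17 members became 10 with a Control threshold of 0.25 TPM, 41 with an APAP threshold of 2.5 TPM and 8 with one of 10 TPM; leaving out 1 Control or APAP replicate gave 13 (without Control replicate 3) to 24 (without APAP replicate 4). The median length became 1749 bases with the Control threshold of 0.25 TPM and 2181 with CPM, and 927 to 1249 without 1 replicate. Members at a given mean level numbered 3 with CCl4 and 5 with TCDD at 0.5 TPM, 4 with TCDD when TCDD replicate 1 was included, and 0 with TCE at 5 TPM. Without 1 replicate, they numbered 0 to 1 with CCl4 (0 without CCl4 replicate 1), 2 to 3 with TCDD (3 without replicate 2 or 3, 2 without replicate 4) and 2 to 4 with TCE. Calls among members stayed at 0 in the joint and 3 pairwise contrasts of CCl4, TCDD and TCE under every setting run, which says nothing of stability for members this low. Over all transcripts, calls without 1 replicate ran from 70 to 443 in the joint contrast, 100 to 589 in CCl4 against TCE and 65 to 354 in CCl4 against TCDD, the lowest without CCl4 replicate 2 in the first and second and TCDD replicate 3 in the last, the highest without TCDD replicate 4. Against the Control, DESeq2 gave 1 in place of 0. Scaling to total counts was added after seeing the data. Same-numbered libraries did not deviate together (29 pairs, correlations -0.168 to 0.125 by title number, -0.203 to 0.141 by table number), and a replicate block by either number gave 0 calls among members in each of these contrasts.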
